A study of Mus musculus with 3 samples.

Results

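Promoters that were methylated in wild-type mouse embryonic stem (ES) cells were examined for the methylation that remained without DNMT3A and without any of the active DNA methyltransferases. A promoter was taken as the window of 1000 bp on either side of the annotated start of a protein-coding gene on an autosome, and it was counted as covered when at least 5 CpGs had more than 10 reads in both the wild-type and the Dnmt3a KO library. Of 21418 gene starts, 11673 were covered, and 267 of these windows had a mean methylation of at least 50% in wild type. These 267 windows are 2.29% of the covered promoters. They were selected on their wild-type values, so their wild-type levels describe the selection and carry no test.

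Methylation was measured by reduced representation bisulfite sequencing (RRBS), in which MspI fragments, which start and end at CCGG, are size-selected and converted, so that CpG-rich DNA is read at single CpGs. Wild-type cells came from blastocysts of mixed 129-C57Bl/6 background and were kept on feeder cells or gelatine. Dnmt3a KO cells had the same mixed 129-C57Bl/6 strain label, were edited with CRISPR/Cas9 guides against an exon of Dnmt3a and were kept on gelatine. Dnmt TKO cells, which lack the 3 active methyltransferases DNMT1, DNMT3A and DNMT3B, carried the strain label J1 and were also kept on gelatine. All cells grew in serum with LIF. There was 1 library per genotype, so differences between genotypes had no replicate check, and genotype cannot be told apart from clone, culture or, for Dnmt TKO, strain. The files list 1035670 CpGs for wild type, 918295 for Dnmt3a KO and 558703 for Dnmt TKO, and the median CpG had 29, 17 and 12 reads. At the CpGs of the methylated promoters, the median depth was 41.5 reads in wild type and 19 in Dnmt3a KO. Intervals given below are Newcombe 95% intervals of the pooled reads of a window. They cover counting error only, and they treat any PCR copies and neighbouring CpGs of the same read as independent.

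DNA methylation at a promoter is commonly found together with silencing of the gene. DNMT3A and DNMT3B place methyl groups on unmethylated CpGs, while DNMT1 copies them to the new strand after replication. CpG island promoters, which are dense in CpGs, are mostly kept free of methylation, with a known exception in genes of the germ line, whose promoters are methylated in the early embryo and in somatic cells.

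The 300 bp with most measured CpGs are printed for 5 of the promoters, 5′ to 3′ on the strand of the gene, with the CpGs measured in both libraries in capitals. Sequences are from mm9. The first pair lost most of their methylation in Dnmt3a KO. Dnajc5g lies at chr5:31410533-31410832 and covers the gene start itself, with 8 of its 11 measured CpGs upstream, while Sohlh2 lies at chr3:54986350-54986649 in an intron, 400 to 699 bp after the start. The second pair are the germ cell genes with most measured CpGs, Slc25a31 at chr3:40512579-40512878 and Fkbp6 at chr5:135825620-135825919. The last, 4933415F23Rik at chr1:23108803-23109102, stayed among the 8 highest in Dnmt3a KO of the promoters with at least 10 measured CpGs, and its measured CpGs are mostly in coding sequence.
Dnajc5g: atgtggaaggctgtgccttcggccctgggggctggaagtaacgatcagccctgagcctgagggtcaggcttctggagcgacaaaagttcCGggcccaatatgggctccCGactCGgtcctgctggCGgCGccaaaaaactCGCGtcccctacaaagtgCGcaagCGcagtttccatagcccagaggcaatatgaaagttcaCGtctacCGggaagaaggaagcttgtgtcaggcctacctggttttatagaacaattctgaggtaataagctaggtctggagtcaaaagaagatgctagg
Sohlh2: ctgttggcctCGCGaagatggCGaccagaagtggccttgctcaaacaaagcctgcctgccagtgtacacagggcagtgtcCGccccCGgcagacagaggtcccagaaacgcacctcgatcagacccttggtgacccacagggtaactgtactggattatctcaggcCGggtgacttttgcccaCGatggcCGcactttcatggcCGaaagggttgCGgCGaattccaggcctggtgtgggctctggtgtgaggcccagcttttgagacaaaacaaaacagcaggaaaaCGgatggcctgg
Slc25a31: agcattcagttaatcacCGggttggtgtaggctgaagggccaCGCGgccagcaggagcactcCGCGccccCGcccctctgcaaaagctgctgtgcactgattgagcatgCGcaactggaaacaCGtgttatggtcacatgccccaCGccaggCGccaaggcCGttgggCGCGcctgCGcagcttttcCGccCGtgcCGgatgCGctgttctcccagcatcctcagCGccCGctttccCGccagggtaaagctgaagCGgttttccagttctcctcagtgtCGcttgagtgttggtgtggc
Fkbp6: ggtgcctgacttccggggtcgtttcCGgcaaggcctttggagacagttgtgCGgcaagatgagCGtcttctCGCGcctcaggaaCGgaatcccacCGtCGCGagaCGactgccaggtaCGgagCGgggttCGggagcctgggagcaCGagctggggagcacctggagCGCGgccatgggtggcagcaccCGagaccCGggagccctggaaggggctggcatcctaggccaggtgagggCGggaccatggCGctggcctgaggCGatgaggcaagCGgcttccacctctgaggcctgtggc
4933415F23Rik: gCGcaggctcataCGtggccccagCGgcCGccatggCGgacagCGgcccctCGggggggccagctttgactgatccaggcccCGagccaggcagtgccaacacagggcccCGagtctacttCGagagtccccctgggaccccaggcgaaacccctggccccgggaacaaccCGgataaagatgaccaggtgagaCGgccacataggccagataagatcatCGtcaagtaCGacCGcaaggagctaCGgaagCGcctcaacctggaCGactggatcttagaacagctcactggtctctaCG

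Methylation in Dnmt3a KO was lower than in wild type at 262 of the 267 promoters. Averaged over windows, wild-type methylation was 73.3% ± 10.1 and Dnmt3a KO methylation 52.0% ± 18.3 (SD over 267 windows), a difference of -21.4 percentage points on average, with a median of -20.4. In Dnmt3a KO, 70.9% of the wild-type level was left. The spread between promoters was wider in Dnmt3a KO, from 8.21% to 88.3%, so that some promoters were close to unmethylated and others close to their wild-type level. Of the 267 promoters, 139 still had at least 50% methylation in Dnmt3a KO, against 1.29% of all covered windows, and 137 were lower by at least 20 points, against 1.71% of all covered windows. Since a window that is unmethylated in wild type can neither keep 50% nor fall by 20 points, these shares follow in part from the selection. No methylated promoter was higher by 20 points in Dnmt3a KO, beside 0.0942% of all covered windows. With a share that small, none among 267 is no contrast, and a window above 80% in wild type cannot rise by 20 points. The interval of the difference in pooled reads lay below 0 at 224 promoters and included 0 at 43.

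**Figure D1:**
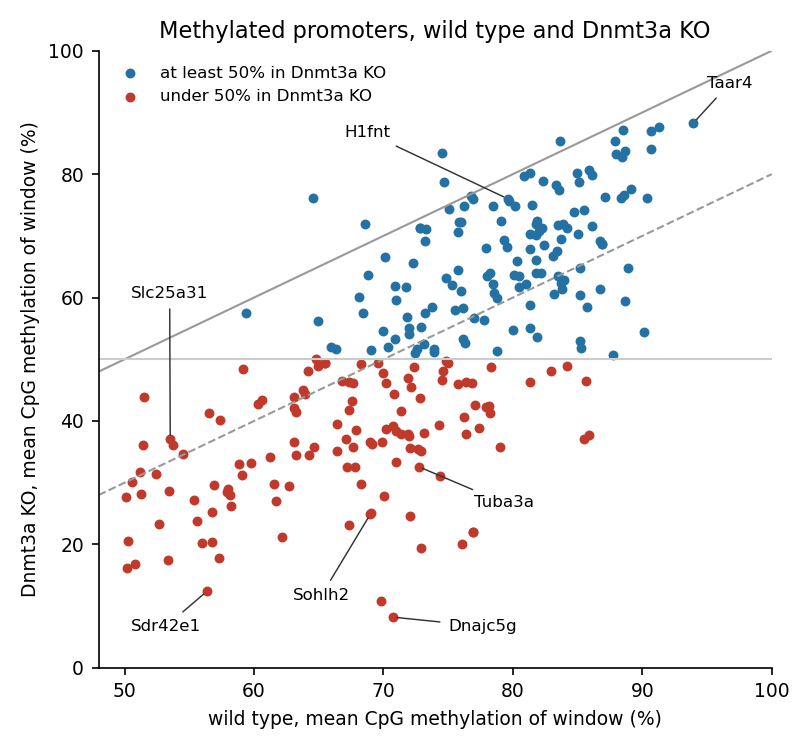
Mean CpG methylation (%) of the 267 methylated promoters in wild type (horizontal axis, from 48 to 100%) and Dnmt3a KO (vertical axis), 1 point per window. The solid line marks equal levels, the dashed line a fall of 20 points and the horizontal line 50%. The blue points are the 139 windows with at least 50% in Dnmt3a KO, and the named windows include the lowest in Dnmt3a KO, Dnajc5g at 8.21%, and the highest, Taar4 at 88.3%, which also had the highest wild-type level.

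The share that was left rose with the wild-type level. The 35 promoters between 50 and 60% in wild type had a mean of 29.5% in Dnmt3a KO, which is 53.7% of their wild-type level, and 1 of them kept 50%. The 98 promoters between 70 and 80% kept 69.8% of their level. The 74 promoters between 80 and 90% averaged 67.4% in Dnmt3a KO and kept 80.1%, and 68 of them stayed at 50% or above. For comparison, the 228 covered windows between 20 and 50% in wild type went from a mean of 32.3% to 18.3%, with 56.6% left, when each window had equal weight. In pooled reads, which weight a window by its depth, the direction was the opposite, from 29.7% to 63.6% (33.9 points higher, 33.7 to 34.1). Yet 208 of the 228 windows were lower in Dnmt3a KO and 20 higher, 10 of them by at least 20 points. Summed over CpGs, the 228 windows had 461855 Dnmt3a KO reads. The 12 windows under 50% in wild type but at least 50% in Dnmt3a KO, 11 of them in this class, held 382946. The pooled direction is therefore not that of most windows. The windows nearest to the selection limit, Gpd1 with 50.1% and 4922505E12Rik with 49.9% in wild type, had 27.7% and 34.4% in Dnmt3a KO. Chance variation in the wild-type library can raise the wild-type value of a selected window. When windows were selected on every other CpG and measured on the remaining CpGs, the mean difference was -21.6 points over 265 windows. Neighbouring CpGs can lie on the same reads, so this does not separate selection from measurement fully.

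The largest fall among promoters with at least 10 measured CpGs was at Dnajc5g, which encodes a DnaJ co-chaperone expressed in testis. Its 11 CpGs, between 70 bp before and 49 bp after the start, had 57.8 to 80.4% methylation in wild type and 2.38 to 11.8% in Dnmt3a KO. The window mean went from 70.7% to 8.21% (difference in pooled reads -63.7 points, -67.1 to -59.8), and the highest CpG in Dnmt3a KO was below the lowest in wild type. Sohlh2, a bHLH transcription factor of early germ cells, went from 69.0% to 24.9% over 17 CpGs. Sdr42e1, a gene of the short-chain dehydrogenase family, went from 56.4% to 12.4% over 14 CpGs. Tuba3a, an alpha-tubulin of testis, went from 72.7% to 32.6%, and Myog, the muscle differentiation factor myogenin, from 68.3% to 29.9%. Calhm1, which encodes a calcium-permeable channel, went from 72.1% to 35.6%. The uncharacterised genes 1700018B08Rik and AI428936 were in this group too, with 62.2% and 56.8% in wild type and 21.3% and 20.5% in Dnmt3a KO. At all 8 of these promoters the interval of the difference lay below 0, and the smallest of these falls in pooled reads was -35.2 points at Myog. In all, 8 of the 267 promoters had less than 20% methylation left in Dnmt3a KO.

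At the other end, 14 promoters had at least 80% methylation in Dnmt3a KO. A window value need not describe the start itself, since 93 of the 267 promoters had no measured CpG within 250 bp of it. Among the 8 highest of the promoters with at least 10 measured CpGs, 4933415F23Rik, a single-exon gene, had 82.3% in wild type and 78.9% in Dnmt3a KO over 19 CpGs, and Gm5105 had 85.1% and 78.8%. H1fnt, the linker histone of spermatids, had 79.6% and 76.0%. Its 19 CpGs all lay in coding sequence, 281 to 801 bp after the start. F2rl3, which encodes a thrombin receptor, had 79.1% and 72.4%. 4932442E05Rik went from 78.4% to 74.9%. Among promoters with at least 10 measured CpGs, the smallest differences were at a Mier2 entry, from 75.1% to 74.3%, and at Il17c, the gene of an epithelial cytokine, from 76.2% to 74.8%. The start of this Mier2 entry lies inside another annotated gene of the same name, so its window is not centred on the start of that gene. Gm11020 and Cmtm2b, a chemokine-like gene, followed with 72.8% and 71.3%, and they are not separate observations because both windows hold the same 10 CpGs. The mean over CpGs and the pooled reads differed for some of these. The pooled reads gave -8.35 points at Il17c (-15.7 to -1.47) and -12.4 points at Cmtm2b (-21.6 to -3.23), so that for these genes a small change rested on the equal weight of CpGs. At 4933415F23Rik (-9.38 to 0.112), 4932442E05Rik (-8.80 to 4.22) and Mier2 (-10.2 to 6.18), the interval of the pooled difference included 0. Of the 267 promoters, 5 were higher in Dnmt3a KO, by at most 11.5 points at Espnl, and the interval included 0 at each of them.

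Genes of the germ line made up part of the methylated promoters. Of 46 covered promoters on a list of genes of meiosis, piRNA biogenesis, oocytes and sperm, 12 were methylated in wild type, which is 26.1% against 2.29% of all covered windows. Their wild-type median was 73.0% and their Dnmt3a KO median 64.7%, with a median difference of -15.0 points, beside -20.4 over all methylated promoters. The median difference of the list was -20.7 points with at least 10 CpGs and -10.8 points with more than 20 reads per CpG. It also depends on the make-up of the list, which leaves out the testis genes Dnajc5g, Prss39 and Prss42, each lower by at least 20 points. Of the 12, 7 kept at least 50% and 4 were lower by at least 20 points, beside 52.1% and 51.3% of all methylated promoters. Several genes of late sperm development were among those that kept 50%. Tssk1, a testis-specific kinase, had 86.9% in wild type and 68.7% in Dnmt3a KO, and Tnp1, the transition protein that replaces histones in spermatids, had 81.8% and 70.1%. Dpep3, a dipeptidase of testis, had 81.3% and 80.2%, and Tex101, a sperm surface protein, 73.2% and 69.2%. At Dpep3 (-13.3 to 5.73) and Tex101 (-10.7 to 3.02) the interval of the pooled difference included 0. Slc25a31, the mitochondrial ADP/ATP carrier of sperm, started lower and had 53.5% and 37.0%.

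Genes of meiosis and of the piRNA pathway lay on both sides of 50% in Dnmt3a KO. Asz1, which acts in the piRNA pathway, had 61.5% in wild type and 29.8% in Dnmt3a KO, and Fkbp6, needed for meiosis and piRNA production, had 71.9% and 47.0%. Spata22, which acts in meiotic recombination, had 71.7% and 61.7% at 6 CpGs in an intron, 397 to 511 bp after the start. Tuba3a and Tuba3b, close relatives that both encode alpha-tubulin of testis, had intervals that did not overlap. Tuba3b had 81.3% in wild type and 67.8% in Dnmt3a KO over 20 CpGs (pooled difference -17.0 to -6.35), whereas the pooled difference at Tuba3a was -41.3 points (-48.2 to -33.6). Both genes are measured by uniquely mapped reads only, and near-identical stretches of such relatives can take reads from each other, which was not tested.

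**Figure D2:**
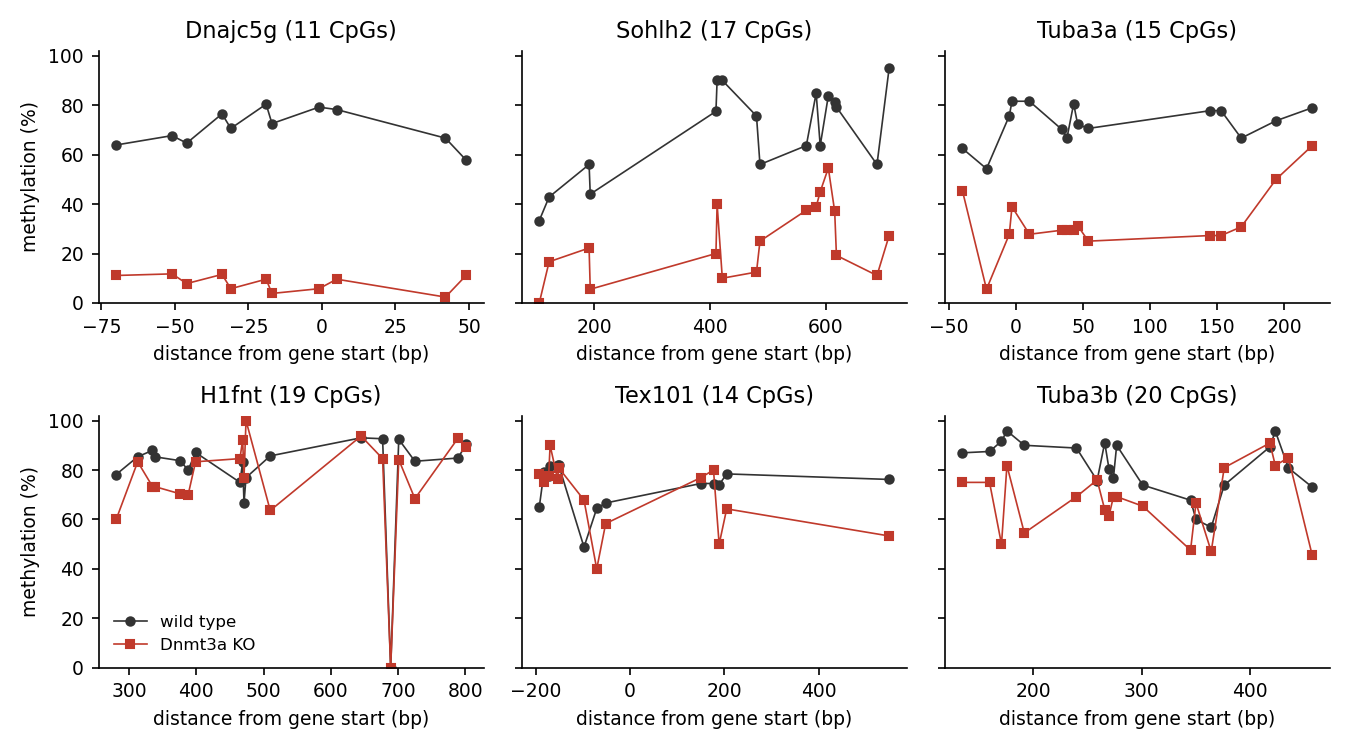
Methylation (%) of each CpG measured in both libraries at Dnajc5g and 5 germ cell genes, by distance from the gene start (bp, in gene direction), for wild type (black circles) and Dnmt3a KO (red squares). The lines separate fully at Dnajc5g, lie apart at Sohlh2 and Tuba3a, and lie close together at H1fnt and Tex101. At H1fnt, 1 CpG has no methylated read in either library.

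Several other lists hold genes of differentiated tissues. Keratin and skin barrier genes had 6 methylated promoters of 13 covered, or 46.2% against 2.29% of all covered windows, with a median difference of -24.3 points. The 13 are a small part of the 157 annotated genes of this list. One of the 6 is Lcn10, a lipocalin that the symbol pattern of the list took in and that is no skin structural gene. Krt79 went from 81.9% to 53.6%. The neighbours Krt26 and Krt27 on chromosome 11, with starts at 99199280 and 99212418, differed, the first going from 72.3% to 65.6% and the second from 67.2% to 32.6%. Their pooled differences were -9.96 points (-16.3 to -3.69) at Krt26 and -34.3 points (-41.3 to -26.8) at Krt27. Muscle genes had 5 methylated promoters of 17 covered, or 29.4% against 2.29% of all covered windows, with a median difference of -23.7 points. The list holds 60 annotated genes. Pygm, the glycogen phosphorylase of muscle, went from 76.3% to 52.6%, and Acta1, skeletal muscle actin, from 69.6% to 49.5%. Of the 5 muscle genes, 4 were lower by at least 20 points and 1 kept 50%, beside 51.3% and 52.1% of all methylated promoters. With more than 20 reads per CpG, the median difference of the muscle list was -14.8 points.

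Immune genes had 5 methylated promoters of 65 covered, or 7.69% against 2.29% of all covered windows, and 4 of the 5 kept 50%, beside 52.1% of all methylated promoters. Their median difference was -17.6 points, but -6.54 points in windows of 500 bp on either side, -9.51 with at least 10 CpGs and -9.54 when selection and measurement used different CpGs. Il12a, a subunit of interleukin-12, had 75.5% in wild type and 58.0% in Dnmt3a KO. Its 10 CpGs lay in an intron, 663 to 743 bp after the start. Of 12 covered defence and protease genes, 4 were methylated, or 33.3% against 2.29% of all covered windows. Of these 4, 3 were lower by at least 20 points, beside 51.3% of all methylated promoters. They include Prss39, which went from 59.1% to 31.2%, and Prss42, which went from 57.9% to 28.5%, both serine proteases of testis that could as well stand among germ cell genes. Of 29 covered genes of drug and steroid metabolism, 3 were methylated, or 10.3% against 2.29% of all covered windows. Sult2b1, a cholesterol sulfotransferase, went from 53.5% to 28.6% and Hsd3b7, an enzyme of bile acid synthesis, from 86.7% to 69.1%. Of the 134 covered genes on the ion channel list, which was drawn up by symbol families and does not hold Calhm1, 4 were methylated, or 2.99% against 2.29% of all covered windows. Among them were Kcnb2, a potassium channel, with 90.4% and 76.1%, and Accn3, an acid-sensing channel, with 56.9% and 29.7%. The CpGs of Accn3 lay 315 to 812 bp after the start, mostly in coding sequence. The highest wild-type level of all 267 promoters was at Taar4, a trace amine receptor and the only methylated one of 7 covered chemosensory receptors, with 93.9% in wild type and 88.3% in Dnmt3a KO. Its 6 CpGs all lay in coding sequence, 390 to 441 bp after the start.

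Other lists held few methylated promoters or none. Of 226 covered zinc finger genes, 2 were methylated, or 0.885% against 2.29% of all covered windows. They were Zfp498 with 80.1% and 74.9% and Zfp72 with 64.2% and 34.6%. The 5 CpGs of Zfp72 lay in an intron, 587 to 725 bp after the start. Of 210 covered solute carriers, 2 were methylated, or 0.952%, namely Slc25a34 and the germ cell gene Slc25a31. Slc25a34 had 51.5% in wild type and 43.8% in Dnmt3a KO. Of the 137 covered genes on the list of lineage transcription factors, 1 was methylated, or 0.730%, namely Foxi1 with 70.9% and 61.8%. The list is not complete, and Myog, described above, is on none of the lists. None of 11 pluripotency genes was methylated, and their highest window mean in wild type was 2.95%. Of 32 covered imprinted genes none reached 50%, and the highest had 46.5%. None of 4 covered plasma protein genes reached 50%. With 2.29% of all covered windows methylated, lists of these sizes can hold none, so these counts do not set the lists apart. Ribosomal protein genes had 6 methylated promoters of 147, or 4.08%. All 6 carry a symbol with -ps, which marks processed gene copies annotated here as coding. Their median difference was -30.6 points, but -7.64 points with more than 20 reads per CpG. Rpl13-ps3 went from 85.2% to 53.0% and Rps13-ps1 from 63.2% to 41.5%. In all, 50 of the 267 promoters belonged to at least 1 of the 15 lists and 217 to none, so these lists describe a minority of the methylated promoters.

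**Figure D3:**
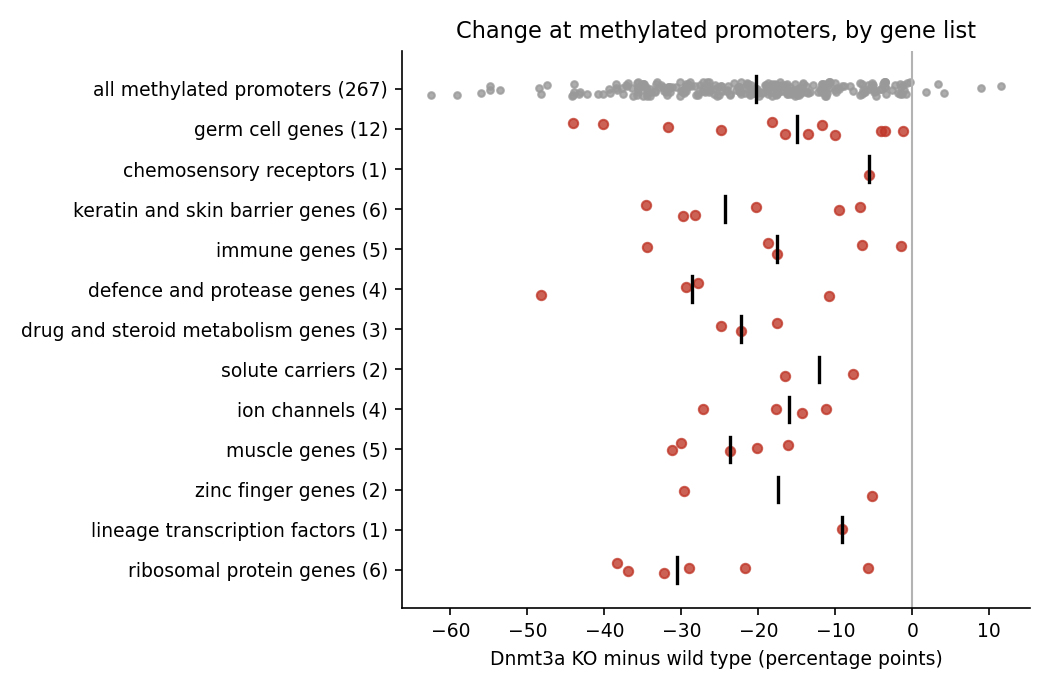
Dnmt3a KO minus wild type (percentage points) at methylated promoters, 1 point per window, for all 267 and for the members of each gene list, with the number in brackets and the median as a black line. Germ cell genes spread from -44.1 to -1.18 points, and every list lies below 0.

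The methylated promoters were poor in CpGs. Windows were classed by the mm9 sequence as high in CpG content when a stretch of 500 bp had a CpG ratio, observed over expected, above 0.75 and a GC content above 55%. They were classed as low when no stretch had a ratio above 0.48, and as intermediate otherwise. Of the methylated promoters, 3.75% were high, 53.2% intermediate and 43.1% low, against 82.6%, 15.5% and 1.88% of all covered windows. Seen from the classes, 115 of the 219 covered windows of low content were methylated, or 52.5%, and 7.84% of those of intermediate content. Of 9643 windows of high content, 10 were methylated. Slc25a31, Fkbp6 and Spata22 were among these 10. The gene lists above were set against all covered windows and not against windows of like CpG content. The list shares are thus not separated from CpG content. The median window held 38 CpGs, against 94 over all covered windows. The share of the wild-type level left in Dnmt3a KO was 71.3% at promoters of high, 68.1% at intermediate and 74.3% at low CpG content.

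The share of single-exon genes was 22.5%, against 4.34% of all covered windows, and 16.1% of the starts lay inside another annotated gene, against 11.1%. Single-exon genes kept 72.4% of their wild-type level and genes of several exons 70.4%. A systematic symbol, such as Gm or Rik names, was carried by 27.3% of the methylated promoters, against 9.18% of all covered windows. Of the measured CpGs, 49.9% lay in coding sequence, 24.6% upstream of the gene, 12.9% in noncoding exons and 12.1% in introns. No CpG within 250 bp of the start was measured at 93 of the 267 promoters, or 34.8%. At the 140 promoters with at least 5 measured CpGs within 250 bp, wild-type cells averaged 71.7% and Dnmt3a KO cells 48.9%, with 68.2% left. Where no CpG within 250 bp was measured, it was 75.6% and 55.5%, with 73.4% left.

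By distance, the Dnmt3a KO library was lower in each step of 250 bp. In the step just before the start, the wild-type level of 329 CpGs averaged 70.2% and the Dnmt3a KO level 45.9%, with 65.4% left. In the step just after it, 842 CpGs had 70.9% and 48.1%. At 750 to 1000 bp after the start, 153 CpGs had 76.0% and 61.8%, with 81.3% left, the largest share of the 8 steps. The steps hold different promoters, since few windows are covered along their whole length.

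**Figure D4:**
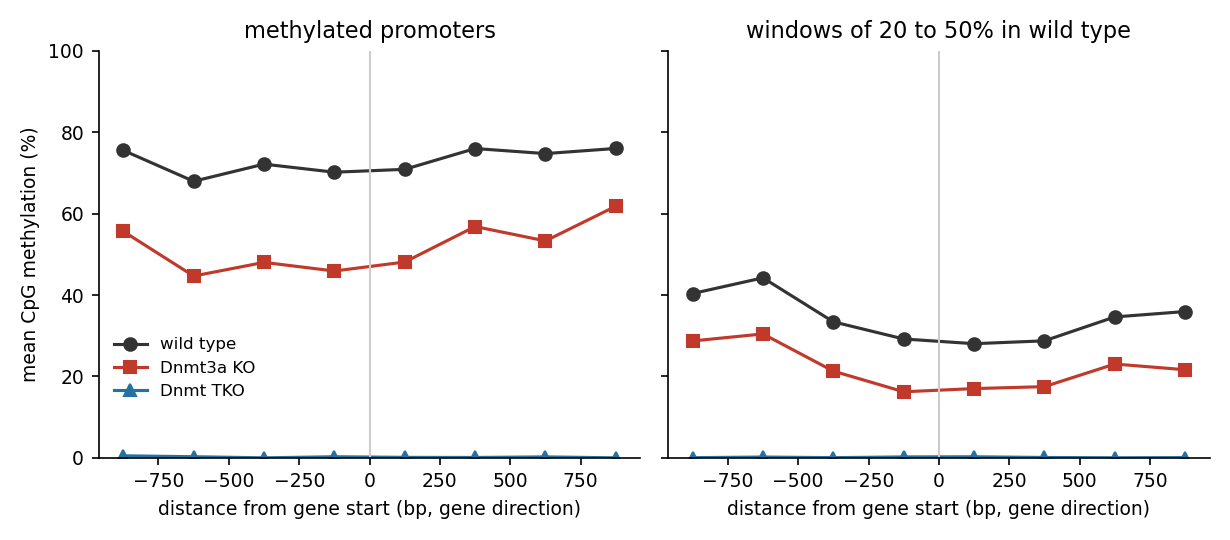
Mean CpG methylation (%) by distance from the gene start (bp, in gene direction, steps of 250 bp) for each genotype, for the methylated promoters (left) and for windows of 20 to 50% in wild type (right). Dnmt3a KO lies below wild type in each step of both panels, and Dnmt TKO stays at or under 0.5%.

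The windows were searched on both strands for the letters TCCCGC, the core bound by E2F6, CACGTG, an E-box, and TGCCGC, the core bound by ZFP57. TCCCGC was found in 37.5% of the methylated promoters and in 81.2% of all covered windows of the same length, CACGTG in 27.0% and 33.4%, and TGCCGC in 33.7% and 62.4%. Methylated promoters hold fewer CpGs, and each of these motifs holds a CpG. Within the class of intermediate CpG content, TCCCGC was found in 40.1% of methylated promoters and 66.4% of all windows of the class. Of the 12 methylated germ cell genes, 10 held TCCCGC, as did 37 of the 46 covered germ cell genes. The median difference between Dnmt3a KO and wild type was -20.3 points at high, -23.3 at intermediate and -17.7 at low CpG content. It was -23.0 points at the 100 methylated promoters with TCCCGC and -18.4 points at the 167 without it. For CACGTG it was -21.0 points with and -20.3 without the motif, and for TGCCGC -21.2 and -19.5. Motif and CpG content were not separated here. These matches describe the sequence and no binding was measured.

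CpGs outside promoters provide a comparison at like wild-type levels. The 2082 CpGs of the methylated promoters with at least 50% in wild type went from 75.8% to 53.7%, with 70.9% left. The 120967 CpGs of at least 50% in wild type that lay over 1000 bp from any start of a protein-coding gene went from 77.1% to 61.2%, with 79.3% left. The share left was smaller in the promoters in each step of wild-type level. For CpGs between 60 and 70% it was 62.0% in promoters and 72.9% far from starts, and between 80 and 90% it was 75.6% and 83.0%. CpGs of at least 50% near other gene starts also had smaller shares left than far CpGs. Over 1963 such CpGs 65.9% was left, and between 80 and 90% in wild type they had 77.5% left. In the flanks of the methylated promoters, 1000 to 5000 bp from the start, 646 CpGs of at least 50% went from 75.9% to 58.2%, with 76.8% left. Median depth was similar in these sets, at 41 reads in wild type and 18 in Dnmt3a KO for promoter CpGs and 38 and 16 for far CpGs. With 1 library per genotype, the difference between these sets was not tested.

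**Figure D5:**
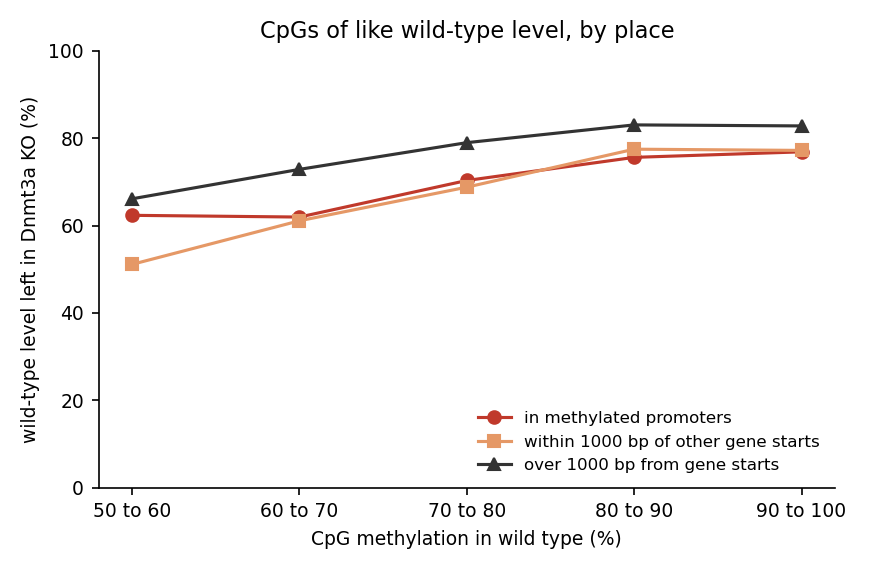
Share of the wild-type level left in Dnmt3a KO (%) for CpGs grouped by their wild-type methylation (%), in methylated promoters (red circles), within 1000 bp of other gene starts (orange squares) and over 1000 bp from gene starts (black triangles). The far CpGs lie above both promoter sets in each of the 5 groups.

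CpGs that the selection did not use were read in addition. In the methylated windows, 797 CpGs passed the depth limit in wild type alone and had a mean of 70.6% there. Another 469 CpGs passed it in Dnmt3a KO alone and had a mean of 41.9%. Selection by the Dnmt3a KO library gave the mirror view, in which 151 windows had at least 50% in Dnmt3a KO. Of these, 139 were methylated promoters of wild type and 12 were below 50% in wild type. Since they had under 50% in wild type and at least 50% in Dnmt3a KO, these 12 windows were higher in Dnmt3a KO by selection. They averaged 31.8% in wild type and 67.8% in Dnmt3a KO, and 11 of them were higher by at least 20 points. The mean difference over the 151 windows was -8.90 points, while their pooled reads went from 37.8% to 72.9%. The 12 windows held 382946 of the 406882 Dnmt3a KO reads of the 151.

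In Dnmt TKO, methylation was close to absent. Of the 267 promoters, 99 had at least 5 CpGs with more than 10 reads in all libraries. Over the same 799 CpGs, wild type averaged 71.2%, Dnmt3a KO 47.9% and Dnmt TKO 0.130% ± 0.640 (SD over 99 windows). No methylated read was seen at 92 of the 99 promoters, or 92.9%, a share near the 90.9% of likewise covered windows under 50% in wild type. Summed over CpGs, 23 of 13833 reads were methylated, or 0.166% (Wilson 95% interval 0.111 to 0.249%), where a count of 0 would allow up to 0.0217%. The 8894 covered windows under 50% in wild type had 0.0627% of reads methylated. The Dnmt TKO mean reached 1% at 3 of the 99 promoters, against 0.912% of all windows covered in the libraries, namely at 1700123L14Rik with 4.82%, Krt26 with 3.21% and Smpd3, which encodes a sphingomyelinase, with 2.61%. At each of these, every CpG with a methylated read had exactly 1, at 6, 5 and 6 CpGs of the window. Without these 3 promoters, 6 of 13341 reads were methylated, or 0.0450% (0.0206 to 0.0981%). In these sums a read counts at each CpG it covers, so they exceed the number of separate reads. Dnajc5g had no methylated read among 221 so counted in Dnmt TKO, Sohlh2 none among 182, and Slc25a31 none among 243. Single CpGs of Dnajc5g had 11 to 23 reads. 4933415F23Rik, which stayed high in Dnmt3a KO, had none among 208. The promoters that kept 50% in Dnmt3a KO had 0.232% of their Dnmt TKO reads methylated and those that did not 0.101%, with overlapping intervals (0.143 to 0.376% and 0.0489 to 0.208%).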

How the data were processed

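Per the labels and the study's methods, genomic DNA was cut with MspI, fragments of selected sizes were bisulfite-converted and amplified, and single-end reads were trimmed (Trim Galore) and mapped to mm9 with QuasR and Bowtie, keeping unique mappers. CpGs over SNPs were removed. The deposited files of the authors hold, per CpG, the counts of all reads and of methylated reads and the fraction of methylated reads, which equals their ratio. Per the methods, PCR duplicates were filtered, in a passage that covers ChIP and bisulfite reads together and does not name RRBS apart. Every listed CpG had at least 10 reads.

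CpGs with more than 10 reads in wild type and Dnmt3a KO were assigned to windows of 1000 bp on either side of gene-level starts of GENCODE vM1, on autosomes. A window value is the mean over its CpGs of 100 times methylated over all reads, so each CpG has equal weight. Windows with at least 5 shared CpGs were kept. All listed positions on autosomes and X were CG in the reference. With 1 library per genotype no test was made. Intervals are Wilson (shares) and Newcombe (differences) 95% intervals of pooled reads. The window code was tested on simulated data. The members and gene lists were chosen with earlier results of these data known.

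The text names, from members with at least 10 shared CpGs, the 8 with the highest Dnmt3a KO mean, the 8 with the largest fall, the 4 with the least fall and the 4 with most CpGs. It further names all germ cell members, the 2 members with most CpGs of each other list, the 3 highest in Dnmt TKO and windows next to the 50% limit. Lcn10, Krt27, Espnl and, in the closing section, the genes on X were named after their values were seen. A few loci that this rule would name, 1 of them among the 8 highest in Dnmt3a KO, are not reported here. Python 3.11.15, pandas 2.3.3, numpy 2.4.6 and scipy 1.17.1 were used. Alternatives changed the depth limit, CpGs per window, weighting, window width, threshold, gene starts, highest-coverage CpGs, selection, overlapping windows and distance to MspI sites. Leaving out chromosomes 1 and 8 was added after seeing the data.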

Additional observations from a re-analysis of the deposited data

Results flagged for a closer look

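Autosomes alone entered the comparisons. Outside them, 4 of 230 covered gene starts on the X chromosome were methylated, or 1.74%, beside 2.29% of the covered windows on autosomes. The mean of these 4 went from 63.3% in wild type to 43.8% in Dnmt3a KO. Gm17379, with 25 CpGs, had 67.3% and 65.9%. 3110007F17Rik had 81.5% and 48.6%, 8030474K03Rik had 51.7% and 29.0%, and Taf7l, a germ cell paralogue of a TFIID subunit, had 52.8% and 31.6%. No test was made, and a library-specific change in this chromosome was not tested.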

How the results depend on the processing

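The mean difference between Dnmt3a KO and wild type stayed below 0 under each of the 11 alternatives, and so did the median difference of each gene list in all 112 recomputed values. With more than 20 reads per CpG, 88 promoters were methylated, with a mean difference of -24.5 points, 66.2% left, 38 kept at 50% and 54 lower by 20 points. With at least 10 CpGs, these values were 74 promoters, 69.8% left, 37 kept and 40 lower. With at least 80% in wild type, they were 80 promoters, -16.3 points, 80.7% left, 74 kept and 25 lower, and the Dnmt TKO mean was 0.201%. With all transcript starts, they were 661 windows, -18.5 points, 74.7% left, 390 kept and 287 lower. Methylated reads over all reads gave -22.4 points and 69.4% left, and windows of 500 bp on either side 70.1% left. The analysis without chromosomes 1 and 8, chosen after seeing the data, gave -22.2 points and 69.6% left. Of its 213 promoters, 104 kept 50% and 117 were lower by 20 points. Chromosome 1 held 26 of the 267 promoters and chromosome 8 held 28. They include 4933415F23Rik, F2rl3, Il17c, Cmtm2b and Dpep3, with small falls, and Sdr42e1, 1700018B08Rik and Myog, with large ones. Of the positions listed for Dnmt TKO, 23.3% lay on these chromosomes, beside 16.7% for Dnmt3a KO and 14.6% for wild type. With selection and measurement on different CpGs, the Dnmt TKO mean was 0.384% over 24 windows. The cause of these shifts was not tested, other than that stricter limits leave fewer windows. No paired analysis was possible because each genotype has 1 library. The median of the immune, muscle and ribosomal lists changed by over 1.5 times under settings given beside them. So did the medians of the zinc finger, lineage transcription factor, chemosensory, ion channel and solute carrier lists, which rest on few promoters. For zinc finger genes it moved from -17.5 to -5.29 points in windows of 500 bp on either side. For lineage transcription factors it moved from -9.11 to -23.8 points with more than 20 reads per CpG. Depth at the promoters was a median of 19 reads per CpG in Dnmt3a KO, and 99 promoters had Dnmt TKO values.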

Other observations

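Starts of other gene types on autosomes were read in the same way, as values with no test. Of 262 covered pseudogene starts, 99 were methylated, or 37.8%, and their wild-type level averaged 76.9% and their Dnmt3a KO level 61.4%, with 79.9% left. Of 167 covered miRNA gene starts, 25 were methylated, or 15.0%, with 81.5% left, and of 681 lincRNA starts, 10 were methylated, with 83.3% left. Protein-coding promoters kept 70.9%, a smaller share than each of these gene types, and the difference was not tested.

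Single CpGs without methylation lay inside methylated germ cell promoters. A CpG of H1fnt, 689 bp after the start, had 0 of 75 reads methylated in wild type and 0 of 54 in Dnmt3a KO, while the window means were 79.6% and 76.0%. A CpG of Asz1, 26 bp before the start, had 0 of 74 and 0 of 42, with window means of 61.5% and 29.8%. Whether these positions differ in sequence in these cells was not tested.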
